A study of Mus musculus with 6 samples.

Results

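Keratins and other genes of surface epithelia were followed across 6 RNA sequencing libraries of mouse lens capsules. The set held 36 genes of the 56940 listed: 13 keratins, 7 desmosome genes, the other basal genes Trp63 and Col17a1, 11 surface and differentiation genes, 2 connexins and the secreted Ltf. The genes were selected on the counts of these libraries, above all on their high level in 72 h replicate 3 against the other 72 h libraries, so that contrast is described here and not tested. All 36 symbols were found in the files.

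The capsules came from C57BL/6 mice labelled wildtype, and all 6 library descriptions also carry RUNX_Cre_N, a tag that no source used here explains. The lens fiber mass was removed from an eye, which models cataract surgery, and the capsule with its lens epithelial cells stayed in place. The same operation on the other eye 72 h later gave capsules of 0 h and of 72 h from 1 mouse, but no label ties libraries of the same number to the same mice. Each library pooled 5 capsules, and each time had 3 libraries. A pooled capsule keeps whatever cells adhere to it, so the libraries are of tissue and not of sorted cells.

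Keratins are the intermediate filament proteins of epithelia and work in pairs of a type I and a type II chain. Basal cells of stratified epithelia make Krt5 with Krt14 or Krt15, the suprabasal cells of moist mucosa make Krt4 with Krt13, the mature corneal epithelium makes Krt12, and simple epithelia make Krt8 with Krt18 and Krt19. Krt6a, Krt6b, Krt16 and Krt17 are known for their rise in injured epidermis. The filaments are anchored to desmosomes, in which the cadherins Dsg3, Dsc2 and Dsc3 bind neighbouring cells and Dsp, Pkp1 and Pkp3 link them to keratin. The lens epithelium is a simple epithelium whose main intermediate filament protein is vimentin.

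Start-site windows are shown for 4 genes with different patterns of counts: the basal pair Krt5 and Krt14, the corneal keratin Krt12, which had no counts in 72 h replicate 3, and the connexin Gjb2, which was called higher at 72 h. Each window runs from 250 bases before to 50 bases after the RefSeq start on build GRCm38.p6, which is not the build of the count files (GRCm39). Capitals mark CACCC on either strand, a motif bound by Krüppel-like factors.
Krt5, chr15:101712856-101713155, minus strand: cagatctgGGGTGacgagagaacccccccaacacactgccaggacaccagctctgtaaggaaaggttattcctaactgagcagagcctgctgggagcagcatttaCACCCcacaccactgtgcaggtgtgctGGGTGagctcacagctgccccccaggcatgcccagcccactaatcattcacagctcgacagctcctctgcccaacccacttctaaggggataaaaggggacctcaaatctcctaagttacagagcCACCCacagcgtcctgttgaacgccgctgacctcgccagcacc
Krt14, chr11:100205981-100206280, minus strand: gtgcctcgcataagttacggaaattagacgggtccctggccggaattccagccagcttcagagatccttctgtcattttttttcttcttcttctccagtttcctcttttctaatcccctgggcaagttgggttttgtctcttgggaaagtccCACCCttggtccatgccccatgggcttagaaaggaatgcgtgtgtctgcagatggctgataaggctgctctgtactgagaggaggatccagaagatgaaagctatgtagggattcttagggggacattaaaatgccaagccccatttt
Krt12, chr11:99422210-99422509, minus strand: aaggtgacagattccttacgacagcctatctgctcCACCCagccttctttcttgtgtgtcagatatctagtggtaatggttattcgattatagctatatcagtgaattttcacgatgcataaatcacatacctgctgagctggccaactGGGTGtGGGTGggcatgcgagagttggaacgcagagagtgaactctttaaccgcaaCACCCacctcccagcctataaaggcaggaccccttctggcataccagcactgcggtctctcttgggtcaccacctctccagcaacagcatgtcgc
Gjb2, chr14:57104653-57104952, minus strand: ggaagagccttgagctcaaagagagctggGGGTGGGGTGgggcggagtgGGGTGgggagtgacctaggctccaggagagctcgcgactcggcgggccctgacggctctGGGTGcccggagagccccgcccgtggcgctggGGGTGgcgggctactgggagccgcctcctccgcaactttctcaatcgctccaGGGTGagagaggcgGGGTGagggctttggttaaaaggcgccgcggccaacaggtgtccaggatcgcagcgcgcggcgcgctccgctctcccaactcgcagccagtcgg

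The RefSeq table held 22 such windows for 20 of the 36 genes. In them 6 motifs were searched on both strands, and CACCC was picked for display after its count had been seen. CACCC stood in 21 of the 22 windows, those of 19 genes and not that of Mal, against 57.5% of all 32851 windows and 59.5% of the 21263 windows of protein-coding genes. TATAAA (the TATA box) stood in 5 windows, those of Aqp3, Ckmt1, Col17a1, Krt12 and Krt8, against 13.6% of all windows. GCCNNNGGC (AP-2) stood in 3, against 16.6%, and TGANTCA (AP-1) in 2, both of Krt13, against 7.81%. AACCGGTT (grainyhead) and the p53-family motif were in none of the 22, and in 0.146% and 0.712% of all windows. GCCNNNGGC, TGANTCA, AACCGGTT and the p53-family motif read the same on both strands. These matches describe letters in a window, and binding was not measured.

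Libraries held 11338820 to 12432688 counts in genes at 0 h and 8453450 to 8945397 at 72 h. The 5 further lines of each file, for reads in no gene, held 41.9% to 51.7% of all counted reads. The lens label was checked with 11 markers of lens epithelium, all with counts in every 72 h library. Their summed level was 79567 to 84786 CPM at 0 h and 11546, 19574 and 10679 CPM in 72 h replicates 1, 2 and 3. Most of this sum was Cryaa and Cryab, at 56400 and 19725 CPM in 0 h replicate 1, so its fall is mainly theirs. In the test described below, 7 of the 11 were called lower, where 17.5% of all tested genes were, and Pax6, Six3, Meis1 and Cdh2 were not. Pax6 was at 660 to 706 CPM at 0 h and 593, 588 and 749 CPM at 72 h. CPM here are counts scaled to the library size adjusted by TMM, a scaling for differences in RNA makeup. Genes of the mitochondrial genome held 25.3% of the counts of 72 h replicate 3, against 18.1% and 16.6% in replicates 1 and 2 and 3.75% to 3.91% at 0 h. Whether this bears on the levels below was not tested.

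The surface epithelium genes were abundant in a single library. Together the 36 genes held 0.0237%, 0.0169% and 0.0208% of the counts in genes in 0 h replicates 1, 2 and 3. They held 0.0147%, 0.0316% and 0.924% in 72 h replicates 1, 2 and 3. The share in 72 h replicate 3 was 82664 counts, with an exact 95% binomial interval of 0.918% to 0.930%. The other 5 libraries had between 1241 and 2723 counts of these genes, and replicates 1 and 2 of 72 h stood below and above all 3 libraries of 0 h. PCR copies are not independent molecules, so this interval and those below cover counting error only.

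**Figure D1:**
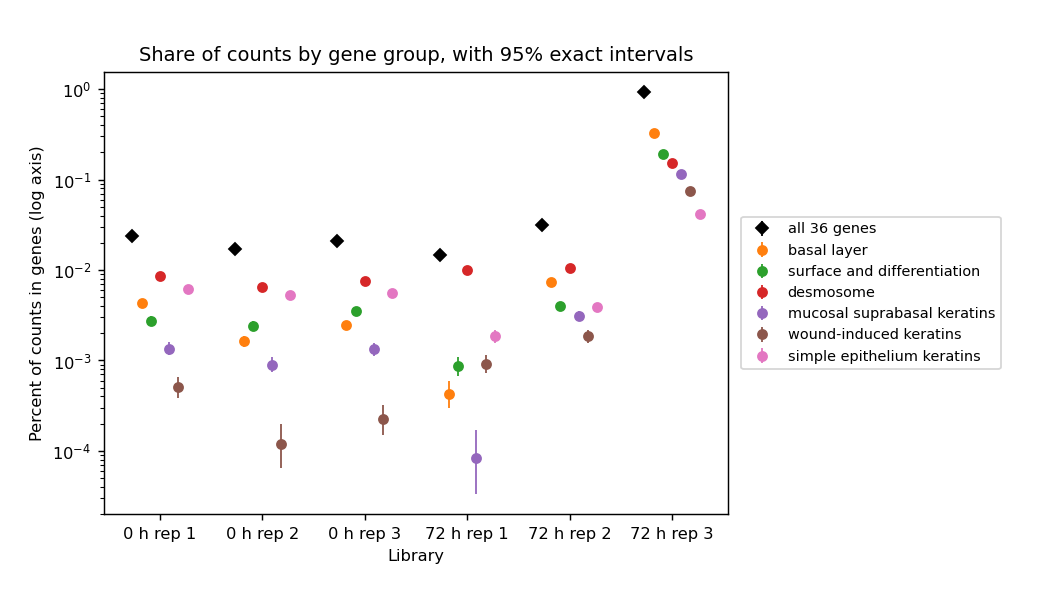
Share of the counts in genes held by each group of surface epithelium genes in each of the 6 libraries, on a log axis, with exact 95% binomial intervals. Every group drawn is highest in 72 h replicate 3, where the 36 genes reach 0.924%. Krt12, the connexins and Ltf enter only the sum of the 36 genes.

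In 72 h replicate 3, 34 of the 36 genes had their highest level of the 6 libraries, the exceptions being Krt12 and Gjb6. Of the 34 genes with at least 10 counts in a 72 h library, 33 were at least 4-fold above both other 72 h libraries there, and 884 of 17206 genes (5.14%) were so over the whole table. Since this contrast chose the genes, their count is a description. The rule took in Perp, just over 4-fold, and Krt17 at 4.16-fold as its lowest, and Krt18 lay outside at 2.42-fold. As the eligible genes were all highest in replicate 3, none could be 4-fold above its group in replicate 1 or 2. Over the whole table, 1.77% of genes were so in replicate 1 and 1.34% in replicate 2. At 0 h, replicate 1 had 3 of 28 genes so (Aqp3, Krt14 and Krt17), and replicates 2 and 3 had 0, against 0.775%, 0.445% and 0.543% of genes for replicates 1, 2 and 3.

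The basal layer genes took the largest part. Krt15, a type I keratin of basal cells, was at 22.6, 14.1 and 18.6 CPM at 0 h and 2.89, 49.3 and 2157 CPM at 72 h. Its type II partner Krt5 was at 11.0, 1.02 and 4.10 CPM at 0 h and 0.695, 17.3 and 1107 CPM at 72 h. Krt14 was at 6.66, 0.339 and 0.947 CPM at 0 h and 0.232, 5.31 and 214 CPM at 72 h. All 3 keratins were lowest in 72 h replicate 1, and the level in 72 h replicate 3 was 43.7, 63.9 and 40.3 times that of the next 72 h library. Trp63, the transcription factor that maintains basal cells, had 6, 5 and 2 counts at 0 h and 0, 6 and 197 counts at 72 h. Col17a1, the hemidesmosome collagen that ties basal cells to their matrix, had 15, 5 and 2 counts at 0 h and 3, 10 and 950 counts at 72 h. Both were near the limit of detection in the other 5 libraries and clear in 72 h replicate 3.

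The keratins known from injured epidermis did not share a pattern. Krt6a was at 2.34, 0.254 and 1.18 CPM at 0 h and 0.463, 8.32 and 429 CPM at 72 h, and Krt6b at 0.865, 0.593 and 1.03 CPM at 0 h and 0, 5.89 and 360 CPM at 72 h. Both followed Krt5, near 0 in 72 h replicate 1 and 51.6 and 61.1 times higher in replicate 3 than in replicate 2. About 49.5% and 50.1% of the 50-base windows of their transcripts also occur in another gene, so reads could be split or lost between them. Krt17 had 21, 4 and 0 counts at 0 h and 62, 32 and 244 counts at 72 h, and all 3 libraries of 72 h lay above those of 0 h. Krt16 had 0, 0 and 0 counts at 0 h and 11, 4 and 57 counts at 72 h, again with no overlap, which makes the pooled 72 h level at least 34.0-fold higher than a floor of 3 counts over the pooled 0 h group. Without 72 h replicate 3 that bound was 10.4-fold, and 37.6% of the windows of Krt16 occur in another gene.

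The mucosal pair Krt4 and Krt13 was high where the basal genes were. Krt4 was at 11.5, 7.96 and 9.39 CPM at 0 h and 0.810, 13.1 and 657 CPM at 72 h. Krt13 was at 1.73, 1.02 and 3.63 CPM at 0 h and 0, 18.1 and 613 CPM at 72 h. In 72 h replicate 1 they had 7 and 0 counts, fewer than in any other library. The corneal keratin Krt12 went the other way, with 1, 4 and 16 counts at 0 h and 8, 8 and 0 counts at 72 h. The 0 counts in 72 h replicate 3 allow up to 3 counts, or 0.367 CPM, against 0.926 and 0.924 CPM in replicates 1 and 2, so Krt12 was scarce everywhere and not detectable in the library where the other keratins were abundant.

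Of the simple epithelium keratins, Krt18 was the most even between libraries. It was at 5.45, 4.23 and 5.52 CPM at 0 h and 6.02, 4.74 and 14.6 CPM at 72 h, and 72 h replicate 3 stood 2.42-fold above the next 72 h library. Krt8 had 31, 11 and 2 counts at 0 h and 0, 33 and 475 counts at 72 h, and 26.9% of its windows occur in another gene, among them the pseudogene Krt8-ps. Krt19, the most abundant of these keratins at 0 h, was at 52.7, 47.5 and 48.4 CPM at 0 h and 12.04, 30.5 and 384 CPM at 72 h. Its 0 h libraries were close to each other, 72 h replicates 1 and 2 lay below them and replicate 3 above.

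**Figure D2:**
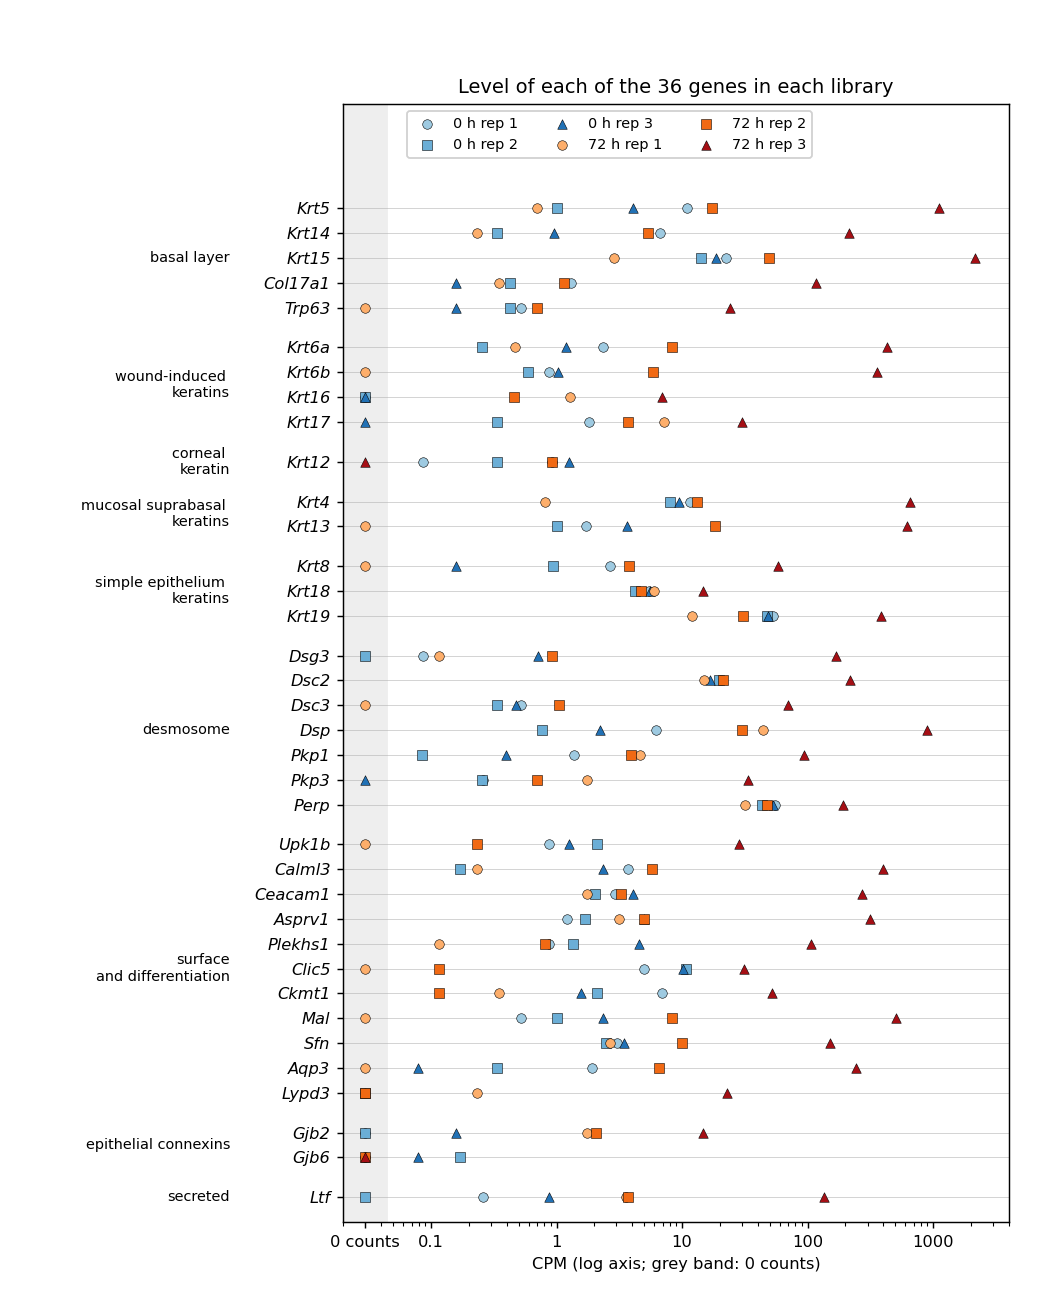
CPM of each of the 36 genes in each of the 6 libraries, 1 point per library, on a log axis with a grey band for 0 counts. The points of 72 h replicate 3 lie to the right of the others for 34 genes, and those of Krt12 and Gjb6 lie in the grey band.

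Desmosome genes divided into those present in all 72 h libraries and those seen mainly in replicate 3. Dsp, the desmoplakin that binds keratin filaments, was at 6.23, 0.762 and 2.21 CPM at 0 h and 43.9, 29.9 and 896 CPM at 72 h. The plakophilin Pkp1 was at 1.38, 0.0847 and 0.394 CPM at 0 h and 4.63, 3.93 and 93.1 CPM at 72 h. Both were higher in every 72 h library than in any at 0 h, and alike in 72 h replicates 1 and 2. Dsg3, the desmosomal cadherin of basal stratified epithelium, had 1, 0 and 9 counts at 0 h and 1, 8 and 1374 counts at 72 h, and Dsc3 had 6, 4 and 6 counts at 0 h and 0, 9 and 569 counts at 72 h. Pkp3 had 3, 3 and 0 counts at 0 h and 15, 6 and 276 counts at 72 h. Dsc2, at 20.3, 19.6 and 16.7 CPM at 0 h and 15.05, 21.1 and 216 CPM at 72 h, and the tetraspan protein Perp, at 55.1, 43.6 and 52.7 CPM at 0 h and 31.6, 47.7 and 191 CPM at 72 h, were present in all libraries, and apart from 72 h replicate 3 their levels at 0 h and 72 h overlapped.

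The 11 surface and differentiation genes were each at least 15.1-fold higher in 72 h replicate 3 than in the next 72 h library, taking a floor of 3 counts. Calml3, a calmodulin-like protein of epithelial cells, was at 3.72, 0.169 and 2.37 CPM at 0 h and 0.232, 5.78 and 397 CPM at 72 h. Mal, a membrane protein of apical transport, was at 0.519, 1.02 and 2.37 CPM at 0 h and 0, 8.32 and 505 CPM at 72 h. The water and glycerol channel Aqp3 was at 1.90, 0.339 and 0.0789 CPM at 0 h and 0, 6.58 and 244 CPM at 72 h. These 3 genes tracked Krt5, with next to no counts in 72 h replicate 1 and more in replicate 2. Asprv1, a protease of differentiating epidermis, was at 1.21, 1.69 and 4.97 CPM at 0 h and 3.13, 4.97 and 314 CPM at 72 h, and the adhesion protein Ceacam1 at 2.94, 2.03 and 4.10 CPM at 0 h and 1.74, 3.23 and 270 CPM at 72 h. For Ceacam1, 49.5% of windows also occur in another gene, its paralog Ceacam2 among them. Sfn, a cell cycle regulator of stratified epithelia, was at 3.03, 2.46 and 3.47 CPM at 0 h and 2.66, 9.93 and 150 CPM at 72 h.

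A few of these genes were present at 0 h and nearly absent from 72 h replicates 1 and 2. Clic5, an intracellular channel family protein linked to the actin cortex, had 58, 126 and 128 counts at 0 h and 0, 1 and 254 counts at 72 h. The uroplakin Upk1b had 10, 25 and 16 counts at 0 h and 0, 2 and 234 counts at 72 h. Ckmt1, a mitochondrial creatine kinase, had 80, 25 and 20 counts at 0 h and 3, 1 and 424 counts at 72 h, and it overlaps Strc on the other strand, so with the strand setting not given its reads cannot be assigned with certainty. In each case the fewest counts were in 72 h replicates 1 and 2 and the most in replicate 3. With the floor of 3 counts, replicate 3 was 89.4-fold above the next 72 h library for Clic5 and 82.4-fold for Upk1b. As ratios of the counts themselves, with no floor, the values were 269 for Clic5 (exact 95% interval 47.8 to 10661) and 124 for Upk1b (33.9 to 1029). Plekhs1 had 10, 16 and 58 counts at 0 h and 1, 7 and 868 counts at 72 h, and Lypd3, a surface protein of the urokinase receptor family, had 0, 0 and 0 counts at 0 h and 2, 0 and 186 counts at 72 h. Lypd3 was at least 88.7-fold higher over the pooled 72 h libraries than the 0 h floor of 3 counts, and nearly all of those counts came from replicate 3.

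Connexins form the channels of gap junctions. Gjb2 had 0, 0 and 2 counts at 0 h and 15, 18 and 121 counts at 72 h, with every 72 h library above every library of 0 h. Gjb6 had 0, 2 and 1 counts at 0 h and 0, 0 and 0 counts at 72 h, so both groups were at or under 3 counts and no fold is given. Ltf, the secreted iron-binding lactoferrin, had 3, 0 and 11 counts at 0 h and 31, 32 and 1107 counts at 72 h. It is also a granule protein of neutrophils, and 12 neutrophil markers summed to 4.67 to 5.08 CPM at 0 h and 339, 346 and 108 CPM in 72 h replicates 1, 2 and 3. Among those markers the granule genes Ngp, Camp, Elane and Mpo had 0 counts in all 6 libraries. Most of that sum in 72 h replicates 1 and 2 was Lcn2, which epithelia also make, at 228, 283 and 30.6 CPM in replicates 1, 2 and 3. The 11 markers without it summed to 1.02 to 2.60 CPM at 0 h and 111, 63.4 and 77.9 CPM at 72 h. In the test described below, all 5 tested markers (Csf3r, Cxcr2, Mmp8, Mmp9 and Lcn2) were called higher at 72 h, where 21.0% of all tested genes were. Ltf was not ordered like either sum, and the part of neutrophils in its 72 h level was not tested.

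Levels per transcript length put the genes on a common scale. In 72 h replicate 3, CPM per kilobase of the longest protein-coding transcript were 1269 for Krt15, 504 for Krt5, 371 for Krt13, 308 for Krt4 and 279 for Calml3. Krt19 followed at 244, Asprv1 at 203 and Krt6a at 188. At 0 h the order was different, with mean levels per kilobase of 31.4 for Krt19, 25.9 for Perp, 10.8 for Krt15, 4.51 for Krt4, 4.08 for Dsc2 and 3.53 for Krt18.

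The makeup of the keratin counts differed between libraries as well as their sum. Counts of the 13 keratins were 1380, 929 and 1195 at 0 h and 281, 1398 and 49320 at 72 h. Krt19 made up 44.1%, 60.4% and 51.4% of them at 0 h and 37.0%, 18.9% and 6.37% in 72 h replicates 1, 2 and 3. Krt15 and Krt5 made up 35.8% and 18.4% in 72 h replicate 3, and 30.5% and 10.7% in replicate 2. In 72 h replicate 1 the next after Krt19 were Krt17 at 22.1% and Krt18 at 18.5%, which in replicate 3 were 0.495% and 0.241%.

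**Figure D3:**
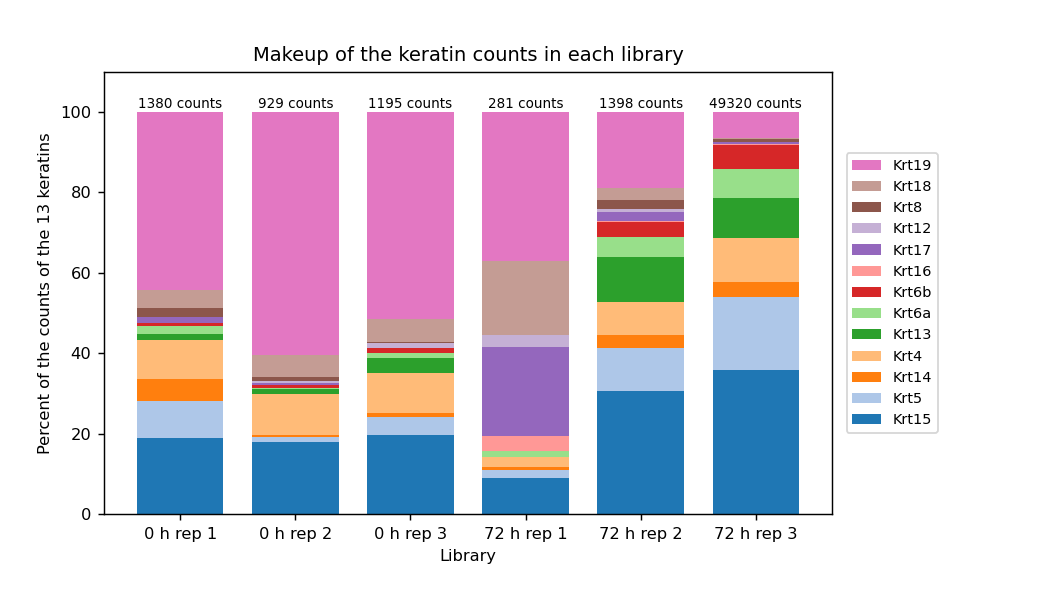
Percent of the counts of the 13 keratins that each keratin held in each of the 6 libraries, as stacked bars from 0. Krt19 is the largest part in the 0 h libraries (44.1% to 60.4%) and Krt15 in 72 h replicates 2 and 3 (30.5% and 35.8%).

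The profile of 72 h replicate 2 was nearer to that of replicate 3 than the profile of replicate 1 was. Across the 36 genes, levels as log2(CPM + 1) in replicates 2 and 3 had a Pearson r of 0.74 and a Spearman rho of 0.81, and in replicates 1 and 3 of 0.19 and 0.13. The likeness was not particular to that pair, since 72 h replicate 2 and 0 h replicate 1 had a Pearson r of 0.74 and a rho of 0.68. The 0 h libraries had Pearson r of 0.31 to 0.53 with 72 h replicate 3. Pairs of 0 h libraries had Pearson r of 0.84 to 0.93. These are descriptions over 36 genes that share libraries and were chosen for a common pattern. Krt13 had 0 counts in 72 h replicate 1, 157 in replicate 2 and 5012 in replicate 3. The CPM in replicate 2 was 0.68 times that in replicate 1 for Dsp, 0.85 times for Pkp1, 1.20 times for Gjb2 and 1.03 times for Ltf.

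The time after surgery was tested next with edgeR's quasi-likelihood test on all 6 libraries, with p-values adjusted over all 15407 genes tested. Of the 36 genes, 28 had enough counts in enough libraries to be tested. The 8 others were Krt12, Krt16, Trp63, Dsg3, Dsc3, Pkp3, Lypd3 and Gjb6. Only Gjb2 was called higher at 72 h and none was called lower, where 21.0% of all tested genes were called higher and 17.5% lower. At an unadjusted p under 0.05, 5 genes were higher and 0 lower, and DESeq2 called 4 higher (Gjb2, Krt17, Krt16 and Sfn) and 0 lower. Most of the 28 genes had no adjusted p with DESeq2, among them Krt5, Krt15, Dsp, Pkp1, Ltf and Clic5, so DESeq2 did not judge them. The number called higher was 3 without 0 h replicate 1, 2 without 0 h replicate 2 or 0 h replicate 3, 4 without 72 h replicate 2 and 5 without 72 h replicate 3. Apart from the fit without 72 h replicate 3, the share of all genes called was not taken in these settings. Their counts are therefore a description and not a result about the group. All 28 fitted log2 fold changes were positive, with a median of 5.11 against -0.02 over all tested genes, but their median standard error was 2.39 against 0.29. The genes were selected on their high level in 72 h replicate 3, which is in this fit. Their signs and median were thus largely set by the selection and are no support for an effect of time on the group. A gene entered the test with enough counts in at least as many libraries as a group holds, from either time. Replicate 3 of 72 h could be 1 of these libraries, but high counts there alone did not suffice. Dsg3, Dsc3, Pkp3, Trp63 and Lypd3, with 186 to 1374 counts in that library, were left out.

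Gjb2 was higher by a log2 fold change of 6.53 ± 1.31 (SE), with an adjusted p of 0.0035, and in 3 of 3 libraries at 72 h. Its adjusted p ranged from 3.3e-06 to 0.0236 over the alternatives in which it was tested. With the stricter filter it was left out for low counts. With 0, 0 and 2 counts at 0 h, it entered the test through the 72 h libraries only, here and in the fit without 72 h replicate 3. The fit on all 6 libraries also uses 72 h replicate 3, on whose levels the genes were selected. These p-values are therefore to be read with that limit. Pooled counts rose from 2 to 154, a ratio of 109 with an exact 95% interval of 29.7 to 908. Of the 28 tested genes, 5 had all 72 h libraries above all 0 h libraries (Krt17, Dsp, Pkp1, Gjb2 and Ltf) and 0 had them below, where 26.5% and 26.9% of all tested genes did. Krt17 had an adjusted p of 0.051, Dsp of 0.076, Pkp1 of 0.085 and Ltf of 0.095, so none of these 4 passed. They too had counts at 0 h too low to enter the test on all 6 libraries without those of 72 h.

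Without 72 h replicate 3, with 2 libraries left at 72 h, 29 genes could be tested and the calls went both ways. Dsp, Ltf, Krt17, Pkp1 and Gjb2 were called higher, 5 of 29 where 21.9% of all tested genes were. Clic5, Ckmt1, Upk1b and Krt19 were called lower, 4 of 29 where 19.6% were. These shares are near or below those of all genes, so they set the group apart in neither direction. The median log2 fold change of the 29 was 0.61, against -0.03 over all genes.

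Among the genes called higher in that fit, Gjb2 changed by a log2 fold of 4.86 ± 1.30 (SE, adjusted p = 0.0079), from 2 pooled counts to 33, a ratio of 34.4 (exact 95% interval 8.80 to 296). Dsp changed by 3.61 ± 0.73 (adjusted p = 0.0146) and Ltf by 3.23 ± 0.99 (adjusted p = 0.0178). Krt17 changed by 2.93 ± 1.02 (adjusted p = 0.0391) and Pkp1 by 2.78 ± 0.86 (adjusted p = 0.0183). Like Gjb2, the genes Ltf, Krt17 and Pkp1 had too few counts at 0 h to enter this fit without the 72 h libraries. Clic5, Ckmt1 and Upk1b had too few at 72 h to enter it without the 0 h libraries. The p-values of these genes are to be read with that limit. Among those called lower, Krt19 fell by 1.21 ± 0.33 on the log2 scale (adjusted p = 0.0219), and Ckmt1 fell by 3.85 ± 1.00 (adjusted p = 0.0068). Clic5 went from 312 pooled counts to 1, a level 150-fold higher at 0 h (exact 95% interval 26.7 to 5930, adjusted p = 1.7e-05). Upk1b went from 51 pooled counts to 2, a level 12.2-fold higher at 0 h (3.22 to 104, adjusted p = 0.0478). With replicate 3 included, the 4 falls had positive fitted changes and did not pass, with adjusted p of 0.93 for Clic5, 0.46 for Ckmt1, 0.36 for Upk1b and 0.47 for Krt19. In pooled tissue, fewer cells of a type and less RNA per cell cannot be told apart.

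**Figure D4:**
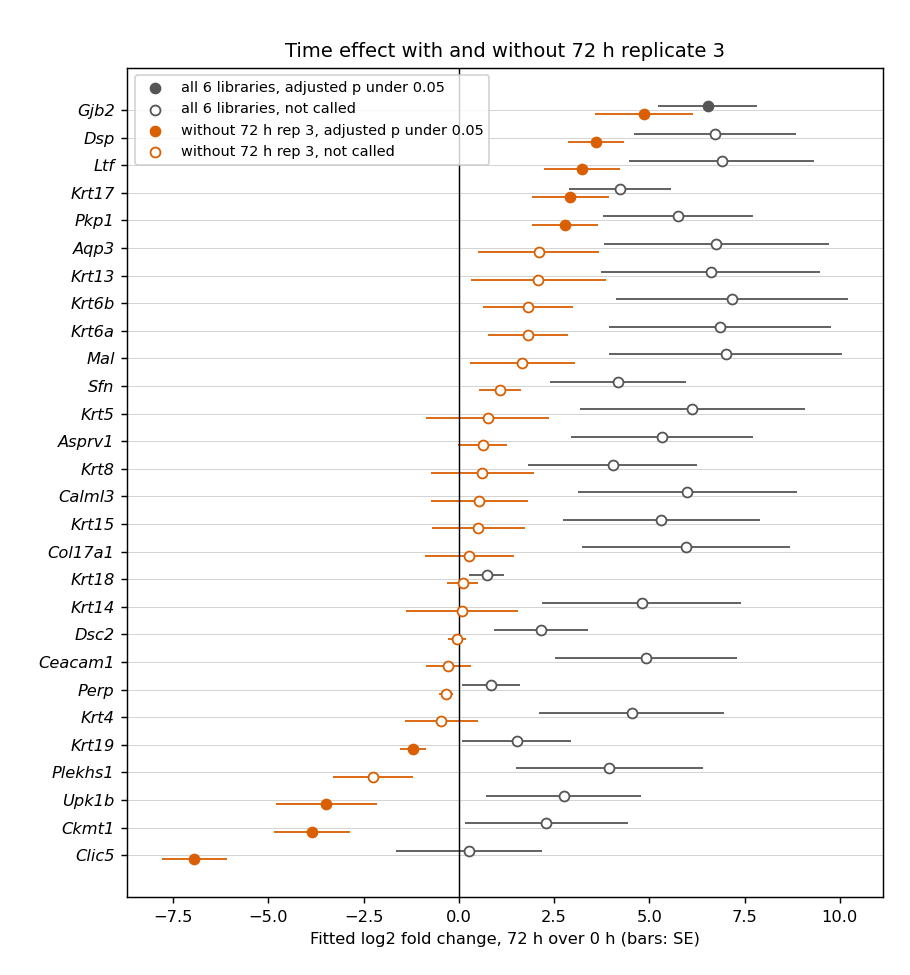
Fitted log2 fold change of 72 h over 0 h with its standard error for the 28 tested genes, with all 6 libraries (grey) and without 72 h replicate 3 (orange); filled points have an adjusted p under 0.05. All 28 grey points are positive and only that of Gjb2 is filled, while 5 orange points are filled above 0 and 4 below. The grey fit includes 72 h replicate 3, on whose high levels the genes were selected.

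Other genes of surface epithelia, from lists written with earlier results of these libraries known, were read in the same way. Of 35 genes of epithelial identity and adhesion, 24 were at least 4-fold above both other 72 h libraries in 72 h replicate 3. So were 6 of 12 eligible genes of the corneal and conjunctival surface, 4 of 9 of the cornified envelope and 6 of 8 remaining keratins, beside 5.14% of all genes. Esrp1, the epithelial splicing factor, was at 0.35, 0 and 0 CPM at 0 h and 0, 0.23 and 44.1 CPM at 72 h. Serpinb5 had 97 counts in 72 h replicate 3 and 0 in the other 5 libraries. Of the 41 remaining keratins, 23 had 0 counts in all libraries, and the most abundant, Krt7, was at 3.11, 5.16 and 4.02 CPM and then 0, 5.43 and 242 CPM.

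Over time, 20 of the 35 genes of epithelial identity were tested, of which 6 were called higher and 3 lower, where 21.0% and 17.5% of all tested genes were. The cell adhesion cadherin Cdh1 was among those that fell, at 472, 429 and 449 CPM at 0 h and 151, 142 and 228 CPM at 72 h (log2 fold change -1.37 ± 0.17, adjusted p = 0.00022). Dst, a linker of filaments to hemidesmosomes and the most abundant of the list, was at 1554, 1434 and 1419 CPM and then 2450, 2131 and 2406 CPM, with a log2 fold change of 0.66 ± 0.10 (adjusted p = 0.00049). Of the corneal and conjunctival list, 8 genes were tested and 4 were called lower (Aldh3a1, Dapl1, Aqp5 and Tkt) and 0 higher. These 4 were at 83.1 CPM or more in every 0 h library, where Krt12 was at most 1.26 CPM. Of those not called, Gsto1 was at 16.6, 37.7 and 843 CPM and Muc1 at 2.78, 2.31 and 144 CPM at 72 h. Pax6 and Tmprss11e, also not called, were less than 4-fold higher in 72 h replicate 3. Tkt, the transketolase abundant in cornea, was at 1985, 1940 and 1987 CPM and then 455, 549 and 409 CPM. Of the cornified envelope list, 5 were tested, with Tgm1 and Cdsn called higher and Sbsn lower. These counts are of few genes and are given as a description beside the same 21.0% and 17.5%. Cdsn, the corneodesmosin of cornified cells, was at 1.73, 1.69 and 1.58 CPM and then 81.0, 94.96 and 28.9 CPM, and so was lowest of the 72 h libraries in replicate 3.

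Markers of other cells near the lens were summed for each library. In 72 h replicate 3, at least 4-fold levels were met by 4 of 5 eligible goblet and gland markers, 1 of 9 photoreceptor markers and 1 of 6 markers of Langerhans and dendritic cells, the last being Epcam, which is also an epithelial gene. None was met among 7 markers of corneal stroma and endothelium, 6 of pigmented iris, 12 of macrophages, 7 of neutrophils, 5 of vessels, 4 of muscle, 11 of lens epithelium or 7 of lens fibers. The stromal keratocan gene Kera had 0 counts in 72 h replicate 3, and 2 counts in all, both in 72 h replicate 2. Others of that list were present, such as Lum with 28, 38 and 18 counts and Dcn with 275, 154 and 51 counts at 72 h. Of its 7 tested genes, these 2 were called higher over time and 3 lower, where 21.0% and 17.5% of all tested genes were. Macrophage markers summed to 31.8 to 49.5 CPM at 0 h and 268, 367 and 157 CPM at 72 h. Cd207, which marks Langerhans cells, had 11 counts, all in 72 h replicate 3, which with the floor was 3.87-fold and under the 4-fold limit. Of the same list, Itgax, Zbtb46, Flt3 and H2-Ab1 were lowest of the 72 h libraries there. Cd74 was at 22.7, 58.8 and 60.9 CPM at 72 h. The part of adhering surface tissue in these levels was not tested.

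**Figure D5:**
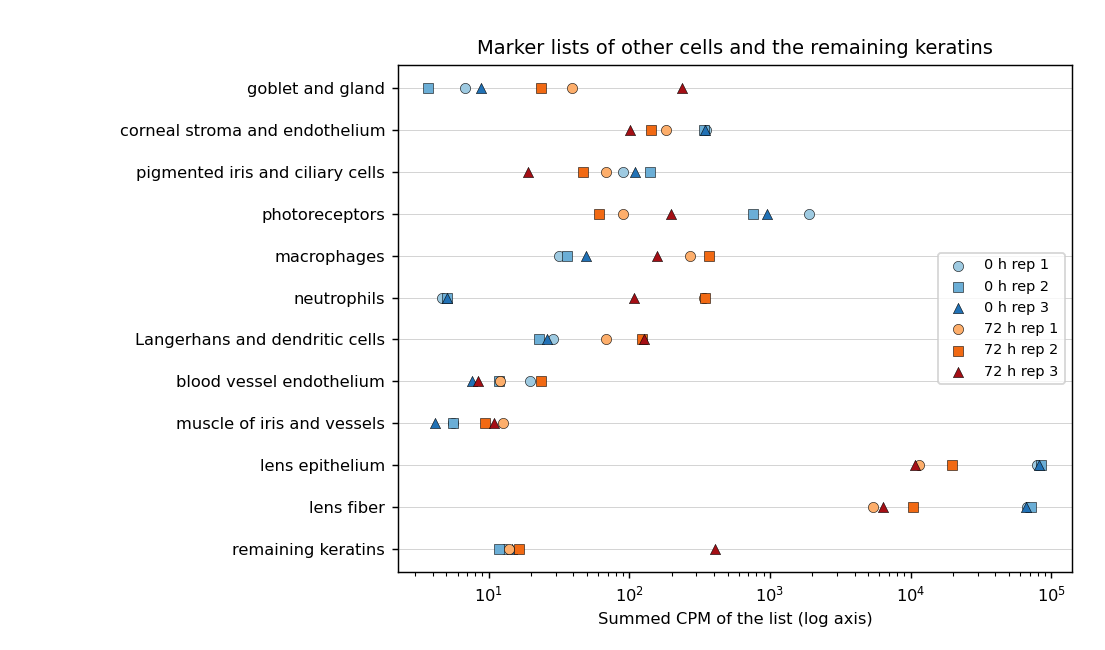
Summed CPM of each marker list in each of the 6 libraries, on a log axis, 1 point per library. The remaining keratins and the goblet and gland list are highest in 72 h replicate 3, while the macrophage, neutrophil and stroma lists are lower there than in the other 72 h libraries. Without Lcn2 the neutrophil list is lowest in 72 h replicate 2.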

How the data were processed

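Per the labels' protocols, total RNA from a Qiagen RNeasy column went into Takara SMARTer Stranded Pico v2 libraries. The authors deposited raw counts per Ensembl gene, 1 file per library, with no normalization. The submitters' processing notes name HISAT2, HTSeq, edgeR and GRCm39. The strand setting, annotation release and versions are not given in the sources used here. For 11 of the 36 genes, which overlap another gene, counts are therefore uncertain. Files are 1 per sample, and groups follow the sample titles. The 3 libraries of a time are called biological replicates by the series' design text, and p-values measure the spread of such pools.

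From the counts, lines that name no gene were left out (41.9% to 51.7% of counted reads). Symbols were matched by Ensembl identifier for 51947 of 56940 genes. Genes were kept with filterByExpr (minimum count 10, minimum total 15), scaled by TMM and tested with edgeR 4.0.16 in R 4.3.3 (quasi-likelihood, robust, two-sided, Benjamini-Hochberg over all tested genes, threshold 0.05, time as the only term). The test was tried on simulated data. Fold changes are on the log2 scale. A floor of 3 counts stands for lower counts in fold comparisons of single libraries, unless a ratio is said to have no floor. Intervals are exact at 95%. All 36 genes are described. Genes of other lists are named where they are at 0, define a cell type, are the highest of their list, were called, or differ from a gene so named. The genes and lists were chosen with earlier results of these data known. Alternatives were other scalings, filters, DESeq2 1.42.0, a replicate block and each library left out.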

Additional observations from a re-analysis of the deposited data

How the results depend on the processing

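Of the 36 genes, the number called higher at 72 h was 1 in the edgeR test as designed, 2 with library size alone and 2 with no filter. It was 0 with a stricter filter (minimum count 50, 11 of the genes tested, Gjb2 not among them), 2 with the replicate block and 4 with DESeq2. Most of the 28 genes in the edgeR test had no adjusted p with DESeq2. Leaving out each library gave 1 to 5 called higher and 0 to 4 called lower. The share of all genes called was taken only for the test as designed and for the fit without 72 h replicate 3. Same-numbered libraries had residual correlations of -0.04, 0.06 and -0.01, and not every library correlated best with its own number, so the replicate numbers were not taken to pair the libraries. With the replicate block the fitted log2 fold changes of Upk1b (-0.18), Clic5 (-2.49) and Ckmt1 (-0.79) turned negative, and the 2 calls were Gjb2 and Ltf (adjusted p = 0.000225 for Ltf). Both genes had too few counts at 0 h to enter the test without the 72 h libraries. Over the libraries left out, log2 fold changes with both signs ranged from -0.46 to 5.11 for Krt4, -1.21 to 2.06 for Krt19, -0.048 to 2.64 for Dsc2 and -0.34 to 1.23 for Perp. They ranged from -3.48 to 3.33 for Upk1b, -0.27 to 5.47 for Ceacam1, -2.26 to 4.98 for Plekhs1, -6.94 to 0.84 for Clic5 and -3.85 to 3.21 for Ckmt1. For Clic5 the value without 0 h replicate 1 was -0.02, and all other negative values came without 72 h replicate 3. The cause of these changes was not tested. Of the values of single genes, 275 kept their direction and side of the threshold, 13 changed sign, 4 of which also passed newly (Krt19, Upk1b, Clic5 and Ckmt1), and 10 others passed newly. The count of genes at least 4-fold higher in 72 h replicate 3 was 31 to 33 over the scalings, floors and minimum counts tried, and was 34 at 2-fold and 29 at 8-fold. Without mitochondrial genes in the total, the share of the 36 genes was 0.0246% and 0.0216% in 0 h replicates 1 and 3 and 0.0179%, 0.0379% and 1.24% in 72 h replicates 1, 2 and 3. Without crystallin genes it was 0.0282%, 0.0203% and 0.0247% at 0 h and 0.937% in 72 h replicate 3. Low counts, such as those of Krt12 and Gjb6, limit what could be detected.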

Other observations

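Muc5ac and Bnc1 were higher in all 3 libraries of 72 h than in any of 0 h, and were singled out for this after their values were seen, so no p is given for them. Muc5ac, the gel-forming mucin of goblet cells, was at 0.69, 0.51 and 1.97 CPM at 0 h and 38.8, 20.2 and 140 CPM at 72 h. The other goblet and gland markers were not like it: Fcgbp was at 5.45, 2.54 and 5.52 CPM at 0 h and 0.46, 0.69 and 41.9 CPM at 72 h, and Agr2, Tff1 and Spdef had 0 counts in 72 h replicates 1 and 2. Bnc1, a zinc finger protein of basal keratinocytes, had no counts at 0 h and was at 6.48, 6.01 and 5.63 CPM at 72 h, which is at least 72.7-fold higher than a floor of 3 counts over the pooled 0 h group. Bnc1 thus had nearly the same level in 72 h replicate 3 as in the other 72 h libraries, where Krt5 and Krt15 differed by over an order of magnitude.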
